A study of Mus musculus with 13 samples.

Results

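The genes described here are 35 genes of glycolysis and of the response to low oxygen, out of 25655 genes measured in 13 cultures. They were taken by name from a list of symbols, which was chosen with earlier results of these data known. By role they comprised 4 glucose and lactate carriers, 10 genes of the preparatory steps of glycolysis, 6 of its payoff steps, 3 that decide the fate of pyruvate, 4 hypoxia-inducible factor (HIF) subunits and prolyl hydroxylases, and 8 other hypoxia-induced genes. All 35 were present in every culture's table and all 35 passed the filter of 1 TPM (transcripts per 1000000), so none is left out of the tests below.

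Glycolysis splits glucose into pyruvate in the cytosol, first spending ATP and then regaining it with a surplus, and lactate dehydrogenase turns pyruvate into lactate so that the pathway can run on. HIF is a dimer whose alpha subunit is hydroxylated by prolyl hydroxylases and destroyed while oxygen is present. When oxygen is low the alpha subunit persists, binds DNA at the letters ACGTG or GCGTG, and raises glycolytic genes together with genes of blood vessel growth, pH control and mitochondrial removal. Fibroblasts in culture are known to rely strongly on glycolysis.

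The cultures were primary neonatal dermal fibroblasts of mouse skin, grown without treatment and sequenced as stranded total RNA libraries. They were either wild type (WT) or homozygous for the G234D allele of Fbn1 (Fbn1 G234D/G234D), the gene of fibrillin-1, which builds the microfibrils of the dermis. In set 1 there were 4 WT (W1, W2, W3 and W4) and 4 homozygous cultures (M1, M2, M3 and M4). Set 2, described as additional cultures, held 2 WT (W5, W6) and 3 homozygous ones (M5 to M7). The series was made to ask whether the mutation changes fibroblasts themselves. What age in days, sex, passage and oxygen level the cultures had is not given in the sources used here. By the animal numbers in the titles the cultures fall into 3 runs, called run A (W1, W2, M1 and M2), run B (W3, W4, M3 and M4) and set 2. No label says that a run marks a litter or a day, and the number of W1 lies far below the other 3 of run A.

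The values were TPM, which hold no read totals, so the depth behind them is unknown, and 11741 to 12042 genes reached 1 TPM in a culture. Summed fibroblast markers stood at 23229 to 34420 TPM in each culture, while 5 erythroid genes, 3 of them at 0 in all cultures, summed to at most 0.175 TPM, 6 endothelial genes to at most 4.44 TPM and 7 keratinocyte genes to at most 8.59 TPM. M1 and M2 stood apart: 14 skeletal muscle genes summed to 507 and 386 TPM there against 74.4 to 187 TPM in the other 11 cultures, and 11 Schwann cell and melanocyte genes to 141 and 143 TPM against 25.3 to 51.2 TPM. The 12 macrophage genes summed to 169 and 225 TPM in M1 and M2, to 36.7 to 101 TPM in the rest of set 1 and to 110 to 173 TPM in set 2. In bulk RNA, fewer cells of a type and less RNA per cell cannot be told apart. Fbn1 measured 491 ± 42.8 TPM (SD, n = 4) in WT of set 1 against 542 ± 50.2 TPM (SD, n = 4) in G234D, which checks no label because the allele is a point mutation.

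Of the 35 genes, 32 had a promoter in the RefSeq table (build GRCm38.p6), taken as the 300 bases from 250 before to 50 after the transcription start. The letters ACGTG or GCGTG, the core to which HIF binds, were searched on both strands; CACGTG counts on both strands because it reads the same on each. At least 1 match was present in 26 of these promoters (81.2%), against 43.8% of all 27025 promoters and 64.5% of the 9490 promoters of genes tested here, and 19 held 2 or more (59.4%, against 20.8% and 35.5%). Ldha held 7 matches and Bnip3 and Slc16a1 held 5 each, while Eno2, Gpi1, Hk1, Pkm, Tpi1 and Vegfa held 0 in this window. Stretches of 60 bases are shown for 8 genes on which the results below turn, with matches to either strand in capitals; a match describes letters and not a bound site.
Ldha (lactate dehydrogenase A, chr7:46845731-46845790, plus strand): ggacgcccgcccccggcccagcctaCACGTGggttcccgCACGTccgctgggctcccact
Pgk1 (phosphoglycerate kinase, chrX:106186929-106186988, plus strand): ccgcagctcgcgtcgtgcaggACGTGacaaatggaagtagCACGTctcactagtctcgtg
Pgam1 (phosphoglycerate mutase, chr19:41911740-41911799, plus strand): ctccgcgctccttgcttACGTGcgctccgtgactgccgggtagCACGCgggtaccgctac
Hk2 (hexokinase 2, chr6:82774477-82774536, minus strand): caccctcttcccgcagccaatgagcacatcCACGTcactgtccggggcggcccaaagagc
Aldoc (aldolase C, chr11:78322993-78323052, plus strand): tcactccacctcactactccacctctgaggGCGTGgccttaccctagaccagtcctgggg
Slc16a3 (lactate exporter MCT4, chr11:120949007-120949066, plus strand): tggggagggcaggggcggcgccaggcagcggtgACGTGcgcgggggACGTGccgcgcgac
Egln3 (prolyl hydroxylase PHD3, chr12:54204065-54204124, minus strand): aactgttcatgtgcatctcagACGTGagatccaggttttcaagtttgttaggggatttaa
Bnip3 (mitophagy receptor, chr7:138909585-138909644, minus strand): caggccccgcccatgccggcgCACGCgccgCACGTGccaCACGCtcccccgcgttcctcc
With CACGTG counted on both strands, the shown stretches hold 4 matches in Bnip3, 3 in Ldha, 2 each in Pgk1, Pgam1 and Slc16a3 and 1 each in Hk2, Aldoc and Egln3.

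The payoff enzymes were among the abundant transcripts of these fibroblasts. Means over the 13 cultures were 1452 TPM for Eno1 (enolase 1), 1406 TPM for Pkm (pyruvate kinase, which makes pyruvate and ATP), 1364 TPM for Gapdh (glyceraldehyde-3-phosphate dehydrogenase) and 939 TPM for Pgk1. Ldha (858 TPM), Pgam1 (800 TPM) and Tpi1 (triose phosphate isomerase, 691 TPM) completed the 7 genes over 500 TPM. TPM are scaled by transcript length, so these levels can be set beside each other. The 6 genes under 10 TPM were Pfkfb4 (7.71 TPM), Aldoc (5.42), Epas1, the gene of HIF-2 alpha (4.96), Ankrd37 (3.29), Slc2a3, the glucose transporter GLUT3 (2.42), and Car9, a membrane carbonic anhydrase that acidifies the cell's surroundings (1.31). The 16 enzyme genes of the list from hexokinase to lactate dehydrogenase were summed, without the main aldolase gene Aldoa. Together they made up 0.748% to 0.942% of all TPM in set 1 and 0.685% to 0.783% in set 2. M4 was lowest and W1 highest in set 1, and M6 was lowest and M7 highest in set 2. Spread differed by gene: the highest culture was 1.25 times the lowest for Egln1, the main oxygen-sensing prolyl hydroxylase PHD2, and 1.27 times for Pkm, Gapdh and Kdm3a, but 3.15 times for Egln3, 3.21 times for Aldoc, 3.58 times for Epas1 and 4.67 times for Car9.

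Isoforms of one step were unequal. Hk1 gave 66.5% to 78.9% of the summed hexokinase TPM of Hk1 and Hk2, with the lowest share in M1. Pfkl, the liver-type phosphofructokinase, gave 58.2% to 66.3% of the 3 phosphofructokinases. The other two traded places between the sets: the share of Pfkp was 18.4% to 25.0% in set 1 and 15.5% to 16.4% in set 2, and that of Pfkm 15.1% to 17.6% in set 1 and 18.5% to 21.1% in set 2, without overlap for either. Eno1 gave at least 98.7% of Eno1 and Eno2, the neuronal-type enolase. This enolase sum leaves out Eno3, no member of the list, which stood at 18.7 to 47.5 TPM and above Eno2 in every culture. Reads of Eno1 may be shared with its near-identical copy Eno1b, which stood at 0.597 to 4.83 TPM. Ldha gave 94.7% to 96.7% of Ldha and Ldhb, Slc2a1 (GLUT1) 96.6% to 98.4% of Slc2a1 and Slc2a3, and Hif1a 95.7% to 99.0% of Hif1a and Epas1. Aldoc gave at most 0.549% of the aldolase sum, in which Aldoa, the main aldolase and no member of the list, stood at 1158 to 1526 TPM. Egln3 gave 13.8% to 17.5% of the summed TPM of Egln1 and Egln3 in set 1 and 7.03% to 11.3% in set 2. That sum leaves out the prolyl hydroxylase gene Egln2, no member of the list, which stood at 64.3 to 91.5 TPM.

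**Figure D1:**
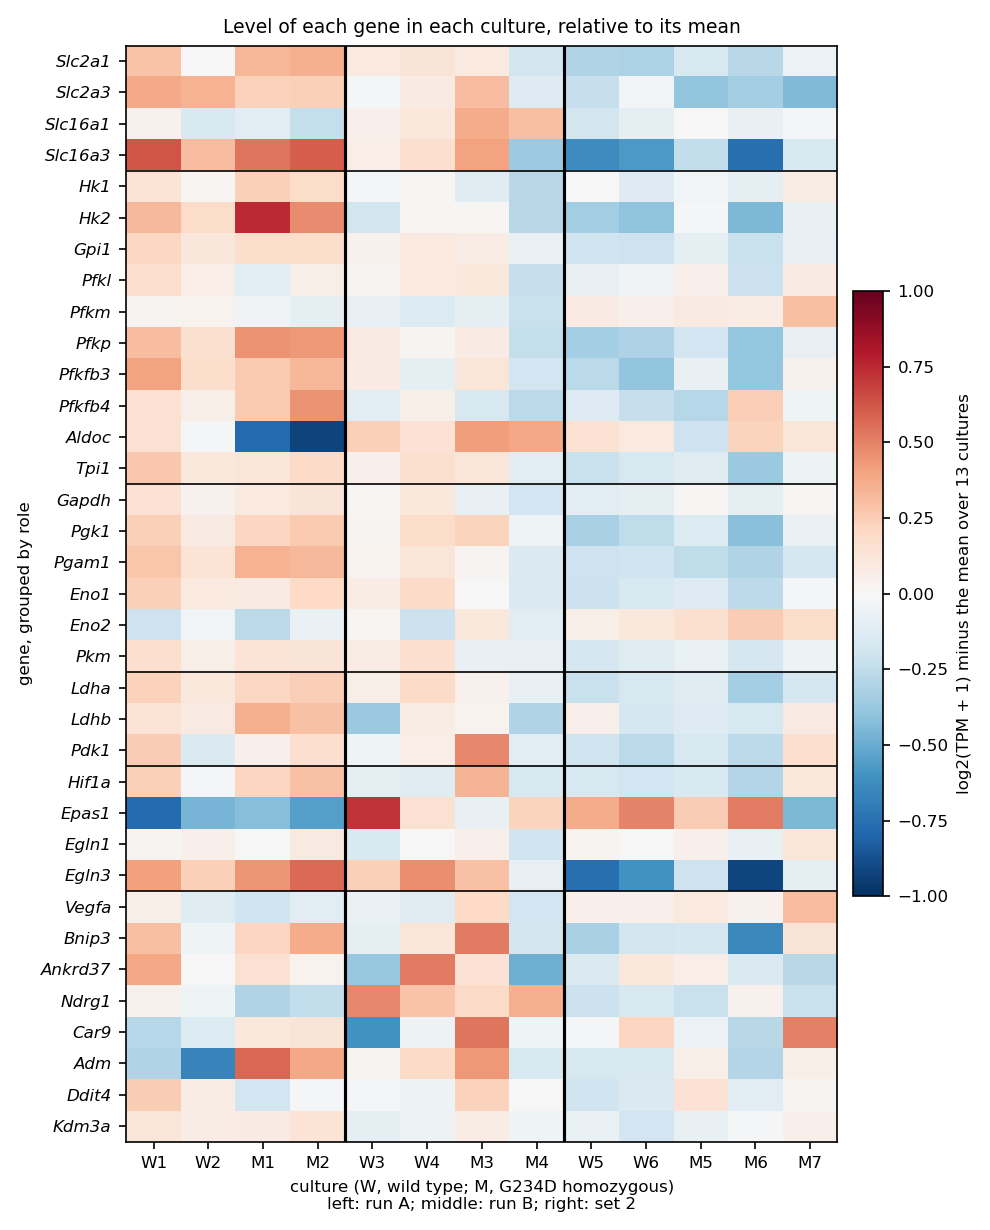
Level of each of the 35 genes (rows, grouped by role) in each of the 13 cultures (columns, ordered by run), as log2(TPM + 1) minus the gene's mean over the 13 cultures. Most glycolytic rows are red in W1, M1 and M2 and blue in set 2, Epas1 runs the other way, and Aldoc is lowest in M1 and M2.

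None of the 35 genes was called as different between genotypes over both sets. With the 3 runs as a block, limma called 0 of the 35 genes at an adjusted p under 0.05 and 0 of all 11942 genes tested (0%). At an unadjusted p under 0.05 there were 0 of the 35 and 1076 of all genes (9.01%), 698 higher and 378 lower in G234D. Leaving out M4 gave 5 of the 35 at that threshold, all higher in G234D, beside 1581 of 11912 genes, 1108 of them higher. Leaving out M6 gave 4 of the 35, beside 1158 of 11898 genes, with 0 called in either case. The log2 differences of the 35 genes ran from −0.25 to 0.35 (median 0.03, against 0.01 over all genes), with 21 positive and 14 negative. For 33 of the 35 genes the 95% interval lay within 1.5-fold in either direction; Adm and Car9 are the other two. By role, 3 of 4 carriers, 5 of 10 preparatory, 2 of 6 payoff, 2 of 3 pyruvate-fate, 3 of 4 HIF pathway and 6 of 8 hypoxia-induced genes had positive values.

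**Figure D2:**
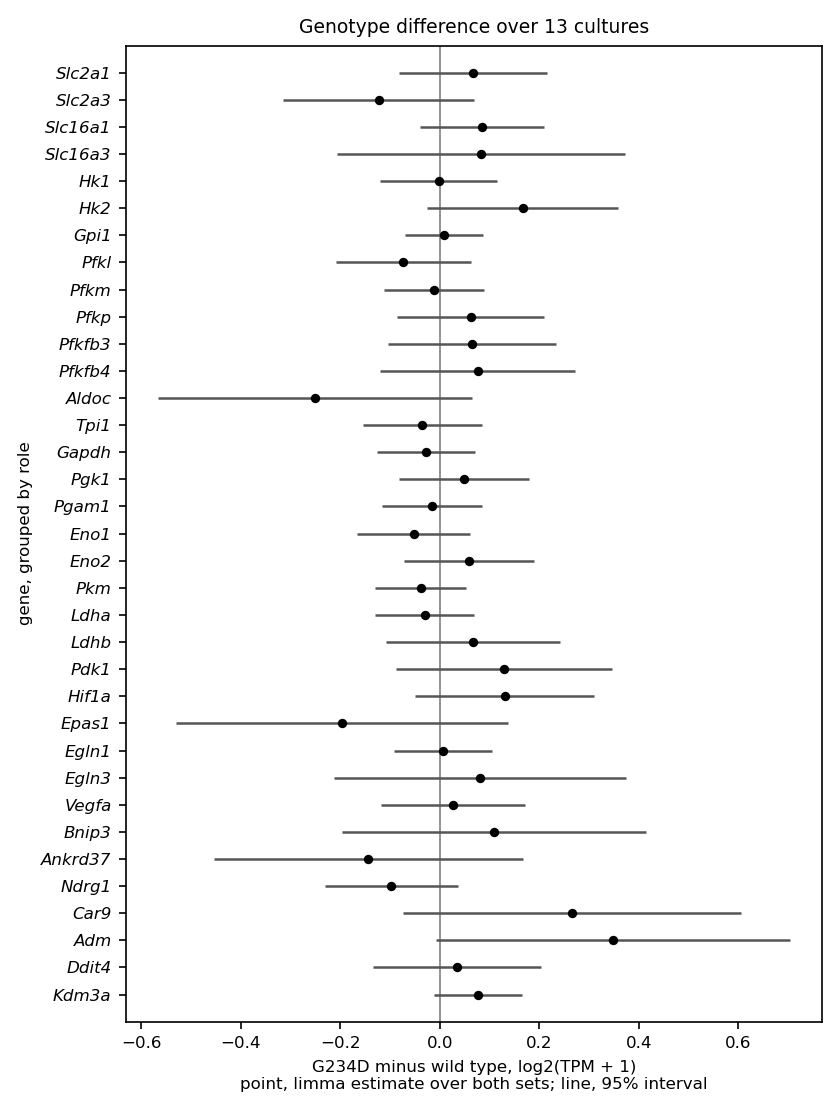
G234D minus WT over 13 cultures for each of the 35 genes on the log2(TPM + 1) scale; points are limma estimates with the 3 runs as a block, and lines are 95% intervals. All 35 intervals include 0, and those of Adm and Car9 reach farthest to the right.

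Adm, which encodes the vasodilator peptide adrenomedullin, had the smallest unadjusted p. In run A it was at 30.4 TPM in W1, 23.4 TPM in W2, 56.8 TPM in M1 and 49.7 TPM in M2. In run B the values were 38.6 and 43.3 TPM in W3 and W4 and 51.4 and 33.8 TPM in M3 and M4, and in set 2 they were 33.8 TPM in both WT cultures and 39.5, 30.7 and 39.4 TPM in M5 to M7. The genotypes were apart in run A and overlapped in the other two runs. The log2 difference was 0.35 over both sets (SE 0.162, 95% interval −0.01 to 0.70, limma adjusted p = 0.561) and 0.50 in set 1 (SE 0.226, limma adjusted p = 0.527). Without M1 and M2 it was 0.07 over both sets and 0.03 in set 1. The cultures with the high Adm, M1 and M2, are those with high muscle and Schwann cell markers; the part of these in the Adm level was not tested.

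Car9 was measured close to the filter. Its values were 0.857, 1.05, 0.487 and 1.18 TPM in W1 to W4 and 1.43, 1.47, 2.27 and 1.19 TPM in M1 to M4, so the 4 WT cultures all lay below the 4 G234D cultures, with W4 close to M4. In set 2 the values were 1.23 and 1.62 TPM in WT and 1.17, 0.862 and 2.20 TPM in G234D, which overlapped. In set 1 the log2 difference was 0.45 (SE 0.175, unadjusted p = 0.0291, limma adjusted p = 0.448), and over both sets it was 0.27 (SE 0.159, limma adjusted p = 0.661). Without M1 and M2 these values were 0.57 and 0.24. The log2(TPM + 1) scale understates differences at such low levels.

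Within set 1, limma called 0 of the 35 genes and 1 of 11905 genes (0.0084%). At an unadjusted p under 0.05 there were 2 of the 35, Car9 and Ndrg1, and 1157 of all genes (9.72%). The count of the 35 was 1 without W1 or W3 and 4 without W2 or W4. It was 6 without M4 (5 of them higher in G234D) and 5 without both M1 and M2 (4 of them lower). Counts over all genes in these refits are not given here, so the counts of the 35 have no background. Ndrg1, a stress-induced gene that HIF raises, stood at 86.1, 81.2, 117 and 102 TPM in W1 to W4 and at 67.7, 70.5, 95.7 and 108 TPM in M1 to M4. M1 and M2 lay below W1 and W2 in run A, and the genotypes overlapped in run B. The log2 difference in set 1 was −0.19 (SE 0.063, limma adjusted p = 0.361), and over both sets −0.10 (SE 0.062, limma adjusted p = 0.69), with 1 of 7 G234D cultures above the WT mean of its run. Without M1 and M2 these values were −0.11 and −0.02. Pfkl had a log2 difference of −0.14 in set 1 (SE 0.072, limma adjusted p = 0.575), with WT at 126 ± 5.22 TPM and G234D at 115 ± 12.2 TPM (SD, n = 4 each).

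Within set 2, limma called 0 of the 35 genes and 1 of 12060 (0.00829%), with 1 of the 35 and 781 of all genes (6.48%) at an unadjusted p under 0.05. Without M6 it was 11 of the 35, 10 of them higher in G234D, beside 945 of all genes, and the median of the 35 rose from 0.07 to 0.12. Without W5, W6, M5 or M7 it was 0. With all 5 cultures the 1 gene was Ddit4, whose product restrains the growth kinase mTORC1 under stress: 181 and 189 TPM in W5 and W6, and 231, 193 and 212 TPM in M5 to M7. The G234D values lay above the WT values, with M6 close to W6, and the log2 difference was 0.19 (SE 0.074, limma adjusted p = 0.749). In set 1 Ddit4 stood at 249 and 220 TPM in W1 and W2 against 183 and 206 TPM in M1 and M2, and at 206 and 201 TPM in W3 and W4 against 245 and 210 TPM in M3 and M4. The genotypes were thus apart in opposite directions in runs A and B and overlapped over set 1 as a whole. Slc2a1, the main glucose importer, measured 75.4 and 74.3 TPM in W5 and W6 against 83.1, 76.3 and 89.0 TPM in G234D (log2 difference 0.14, SE 0.069, limma adjusted p = 0.774). On the lower side Slc2a3 had a difference of −0.27 (SE 0.16) from 1.86 and 2.30 TPM in WT and 1.55, 1.65 and 1.47 TPM in G234D. Epas1 had one of −0.33 (SE 0.265) from 6.32 and 6.995 TPM in WT and 5.75, 7.06 and 3.15 TPM in G234D, where M7 was lowest and M6 highest of the 5 cultures. In set 2, 27 of the 35 genes had positive values (median 0.07 against 0.03 over all genes), and under median-of-ratios scaling 23 of 35 did (median 0.03).

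The remaining genes named over both sets also had intervals that include 0. Kdm3a, a histone demethylase gene raised by HIF, was above the WT mean of its run in 6 of 7 G234D cultures, with a log2 difference of 0.08 (SE 0.041, limma adjusted p = 0.612). Hk2, the inducible hexokinase, had a difference of 0.17 (SE 0.089, limma adjusted p = 0.616) and Aldoc, the brain-type aldolase, one of −0.25 (SE 0.147, limma adjusted p = 0.65). Without M1 and M2 the Aldoc value turned to 0.05. Pgam1 had a difference of −0.02 (SE 0.047), Epas1 −0.20 (SE 0.155), Pfkl −0.07 (SE 0.063), Ddit4 0.03 (SE 0.078), Slc2a1 0.07 (SE 0.069) and Slc2a3 −0.12 (SE 0.09).

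Whether the genotype difference itself changed between the sets was tested as an interaction. It was called for 0 of the 35 genes and for 1 of 11942 genes (0.00837%) by limma, with 0 of the 35 and 965 of all genes (8.08%) at an unadjusted p under 0.05. Without M6 it was 5 of the 35, and without both M1 and M2 it was 4, all with a higher difference in set 2. Counts over all genes at this threshold are not given for these refits. The values of Ndrg1 (0.24, SE 0.114, limma adjusted p = 0.621) and Car9 (−0.49, SE 0.312, limma adjusted p = 0.701) are examples, and both intervals include 0.

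Larger contrasts lay between runs A and B of set 1, each holding 2 WT and 2 G234D cultures. With genotype in the model, limma called 4 of the 35 genes, against 850 of 11905 genes (7.14%, 332 higher and 518 lower in run B). At an unadjusted p under 0.05 there were 17 of the 35, 4 higher and 13 lower, beside 3173 of all genes (26.7%, 1179 higher and 1994 lower). Without M1 and M2 there were 6 of the 35, 3 in each direction, beside 1267 of all genes. Without W1 there were 11 of the 35, and the count over all genes is not given here. The median log2 difference was −0.13 for the 35 genes and −0.02 for all genes, and 25 of 35 were negative. Under median-of-ratios scaling 419 of the 822 called genes were higher (51.0%, against 39.1% of calls in the unscaled values), and 3 of the 35 were called higher and 1 lower in place of 2 and 2 (Pgam1 was lost and Slc16a1 gained), while 25 of 35 stayed negative with a median of −0.10. What the runs stand for is not labelled, so litter, culture date and handling cannot be told apart.

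Ndrg1 and Epas1 were called higher in run B. The Ndrg1 values given above ran from 67.7 to 86.1 TPM in the 4 cultures of run A and from 95.7 to 117 TPM in those of run B, without overlap. The log2 difference was 0.46 (SE 0.063, limma adjusted p = 0.00945). Set 2, at 71.6 to 86.4 TPM, lay at the level of run A. Epas1, whose HIF-2 alpha product acts beside HIF-1 alpha in vessel and stromal cells, stood at 2.33, 3.11, 3.22 and 2.87 TPM in W1, W2, M1 and M2. It stood at 8.34, 5.31, 4.39 and 5.62 TPM in W3, W4, M3 and M4, all above run A. The log2 difference was 0.81 (SE 0.162, limma adjusted p = 0.0274). The Ndrg1 call was lost without M2 (limma adjusted p = 0.0525), and the Epas1 call without W1, M1, M2 or M4 (limma adjusted p = 0.0624, 0.0595, 0.0973 and 0.0661) and without the filter (0.0536).

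Hk2 and Pgam1 were called lower in run B. Hk2 stood at 23.0, 20.8, 31.1 and 25.6 TPM in W1, W2, M1 and M2 and at 15.8, 18.5, 18.3 and 14.8 TPM in W3, W4, M3 and M4, without overlap and with M1 highest. The log2 difference was −0.54 (SE 0.113, limma adjusted p = 0.0309). Pgam1, which moves the phosphate of phosphoglycerate, stood at 958, 871, 1008 and 988 TPM in run A and at 809, 859, 807 and 714 TPM in run B, where W4 came close to W2. Its log2 difference was −0.26 (SE 0.068, limma adjusted p = 0.0499), at the threshold. Each of these calls held when W2 or W4 was left out and was lost when W1, M1, M2, W3, M3 or M4 was, with limma adjusted p up to 0.11 for Hk2 and 0.168 for Pgam1. Both were also lost without the filter (0.0593 and 0.0855), and Pgam1 with median-of-ratios scaling (0.0677) and a pseudocount of 0.1 TPM (0.0504).

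These 4 calls were lost when M1 and M2, the cultures with high muscle, Schwann cell and melanocyte markers, were both left out. Without both, limma called 0 of the 35 genes and 13 of all genes, against 850 with all cultures of set 1. W1 and W2 were then the only cultures of run A, so the values of M1 and M2 and the smaller number of cultures cannot be told apart. The log2 differences were then 0.38 for Ndrg1 (adjusted p = 0.194), 1.05 for Epas1 (0.159), −0.34 for Hk2 (0.373) and −0.13 for Pgam1 (0.587), each with the same sign. The part of the marker genes in these values was not tested.

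Slc16a1, the lactate transporter MCT1, was the nearest uncalled gene on the higher side (22.6 to 27.6 TPM against 27.8 to 35.1 TPM, limma adjusted p = 0.0513). It was called with median-of-ratios scaling (limma adjusted p = 0.0395), with the filter of 10 TPM (0.0457) and without W1 (0.0398). On the lower side Pfkp and Pfkfb3 came nearest (limma adjusted p = 0.0522 and 0.0539), and both were called with the filter of 10 TPM (0.0472 and 0.0490) and without W2 (0.0377 and 0.0466). Hk1 was also called lower without W2 (0.0430), and Ldhb and Pfkfb4 without W4 (0.01998 and 0.0485). Slc16a3, the lactate exporter MCT4, ran from 86.8 to 109 TPM in run A and from 54.2 to 92.6 TPM in run B, where M3 overlapped with run A (limma adjusted p = 0.13). Hif1a ran from 196 to 245 TPM and from 178 to 253 TPM, which overlapped (limma adjusted p = 0.286).

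**Figure D3:**
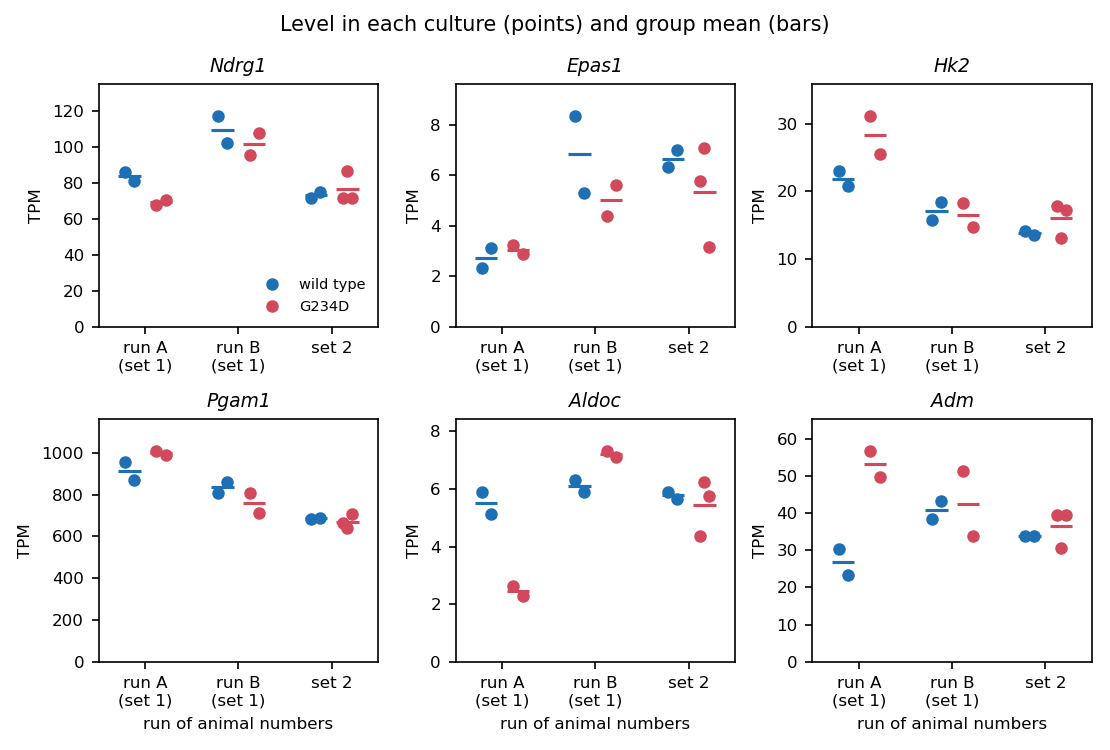
TPM of Ndrg1, Epas1, Hk2, Pgam1, Aldoc and Adm in each culture (points; blue WT, red G234D) by run, with the mean of each genotype in each run as a bar. Ndrg1 and Epas1 are higher and Hk2 and Pgam1 lower in run B than in run A, and Aldoc is lowest in M1 and M2.

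The genotype difference changed between runs A and B for 1 of the 35 genes, Aldoc, against 334 of 11905 genes (2.81%). At an unadjusted p under 0.05 there were 12 of the 35, 3 higher and 9 lower, beside 2391 of all genes (20.1%, 1191 higher and 1200 lower). The count of the 35 was 5 without W2 or W4 and 7 without M1, and ran up to 17 without M3. For these refits the counts over all genes at this threshold are not given here. In run A Aldoc measured 5.89 and 5.13 TPM in W1 and W2 and 2.62 and 2.28 TPM in M1 and M2. In run B it measured 6.33 and 5.89 TPM in W3 and W4 and 7.32 and 7.11 TPM in M3 and M4, and in set 2 the values were 5.90 and 5.66 TPM (WT) and 4.38, 6.25 and 5.75 TPM (G234D). M1 and M2 were thus the 2 lowest of all 13 cultures, and the genotypes were apart in opposite directions in runs A and B. The log2 difference was −0.92 in run A, 0.21 in run B and −0.08 in set 2. The change between these runs was 1.12 (SE 0.168, limma adjusted p = 0.0134), and the call was lost without W1 (limma adjusted p = 0.0661) or W4 (0.0654). M1 and M2 held 141 and 143 TPM of Schwann cell and melanocyte genes and 507 and 386 TPM of muscle genes, and the part of these was not tested.

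Adm moved the other way in M1 and M2, with a log2 difference of 0.97 in run A and 0.03 in run B, but the change was not called (−0.94, SE 0.296, limma adjusted p = 0.149). Without M3 the change was −1.23 for Adm, −0.41 for Hk1 and −0.51 for Pfkp, and without M4 it was 0.53 for Ddit4. These genes, uncalled in the main fit, are named because limma called them in those refits. Each of those refits leaves a single G234D culture in run B. The counts of all genes called in them are not given here, so these calls have no background. Hk2 had 0.35 and −0.05 in runs A and B (limma adjusted p of the change 0.247), and Ddit4 −0.27 and 0.15 (0.114).

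Some cultures of one genotype and run also lay apart from each other in these genes, and others did not. Of the 8 such pairs, M3 was higher than M4 in 33 of the 35 genes (median log2 gap 0.25), against 61.6% of all tested genes (median 0.05). M7 was higher than M6 in 28 of 35 (median 0.22), against 54.5% of all genes, and W1 higher than W2 in 30 of 35 (median 0.14), against 55.9%. M5 was also higher than M6 in 28 of 35 (median 0.13, against 46.1% of all genes), M5 higher than M7 in 10 (40.9%), and W3 higher than W4 in 10 (50.9%). Between M1 and M2 and between W5 and W6 the median size of the gap was smaller for the 35 genes (0.07 and 0.06) than for all genes (0.08 and 0.09). With median-of-ratios scaling the counts for M3 over M4, M7 over M6 and W1 over W2 were 31, 28 and 30 of 35, beside 50.7%, 49.9% and 50.5% of all genes. M4 was the lowest of the 8 cultures of set 1 in 23 of the 35 genes (23.7% of all genes), and M7 the highest of the 5 cultures of set 2 in 22 (32.8%). These gaps compare single cultures and have no test.

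The genes named for these gaps were chosen after their values were seen. Slc16a3 stood at 92.6 TPM in M3 and 54.2 TPM in M4, and at 62.7 TPM in M7 and 41.0 TPM in M6. Bnip3, which marks mitochondria for removal, stood at 146 and 89.5 TPM in M3 and M4 and at 111 and 64.4 TPM in M7 and M6. Egln3, itself a HIF target that limits HIF, stood at 12.7 and 9.51 TPM and at 9.45 and 4.91 TPM. In all 3 genes M3 exceeded M4 by 1.33 to 1.71 times and M7 exceeded M6 by 1.53 to 1.92 times. Pdk1, the kinase that keeps pyruvate out of the mitochondria, stood at 27.8 and 18.1 TPM in M3 and M4 and at 22.2 and 16.1 TPM in M7 and M6. Hif1a, the HIF-1 alpha transcript, went the same way at 253 and 178 TPM and at 215 and 163 TPM. Epas1 and Ndrg1 went the other way in both pairs, with Epas1 at 4.39 and 5.62 TPM in M3 and M4 and at 3.15 and 7.06 TPM in M7 and M6. Summed fibroblast markers stood at 29314 and 26905 TPM in M3 and M4 and at 34420 and 30930 TPM in M7 and M6, and 15 proliferation genes at 916 and 977 TPM and at 876 and 863 TPM; their part in the gaps was not tested.

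**Figure D4:**
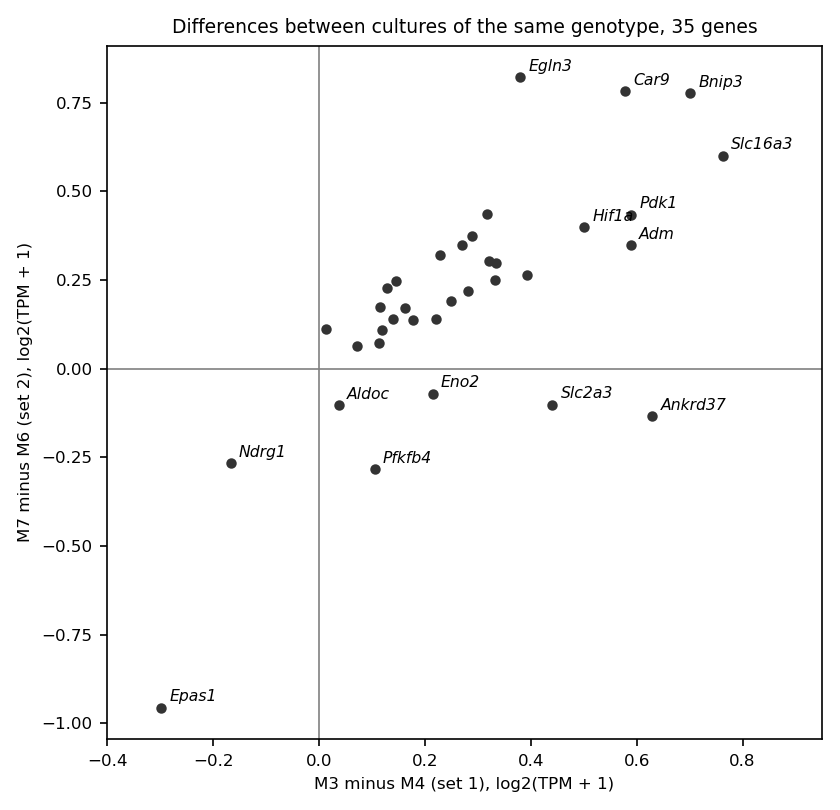
Differences between 2 G234D cultures of set 1 (M3 minus M4, horizontal) and 2 G234D cultures of set 2 (M7 minus M6, vertical) on the log2(TPM + 1) scale, 1 point for each of 35 genes. Most points lie in the upper right, led by Slc16a3, Bnip3, Car9 and Egln3, and Epas1 and Ndrg1 lie in the lower left.

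Set 2 lay below set 1 for most of these genes. Since the sets were made separately, biology and the preparation and sequencing of the libraries cannot be told apart, and the values are given with no test. The mean log2 level was lower in set 2 for 28 of the 35 genes (80%), against 52.2% of all tested genes, with a median difference of −0.19 against −0.01. With median-of-ratios scaling it was again 28 of 35, against 48.8% of all genes. All 5 cultures of set 2 lay below all 8 of set 1 for 5 of the 35 genes, Gpi1, Pgk1, Pgam1, Ldha and Egln3, where 10.4% of all genes did so. All lay above for 1 gene, Pfkm, where 6.82% of all genes did so. The sums of other gene groups also lay apart between the sets. The 9 fibroblast markers summed to 23229 to 29314 TPM in set 1 and 30930 to 34420 TPM in set 2, and the 15 proliferation genes to 916 to 1066 TPM and 863 to 904 TPM. The fibroblast sum is mostly Col1a1, Col1a2 and Col3a1. Of the 9 markers only Col3a1 lay apart by itself (1676 to 3130 TPM and 3652 to 4317 TPM). The others overlapped, such as Thy1 (1526 to 2043 TPM and 1810 to 1923 TPM). The part of these groups in the levels of the 35 genes was not tested.

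Pgk1 and Pgam1 encode successive enzymes of the payoff phase, and Ldha acts after it. Pgk1, which makes the first ATP of the payoff phase, ran from 899 to 1116 TPM in set 1 (median 1067) and stood at 741, 780, 842, 696 and 887 TPM in W5, W6, M5, M6 and M7. Ldha ran from 810 to 1009 TPM (median 942) and stood at 728, 761, 783, 673 and 759 TPM. Pgam1 ran from 714 to 1008 TPM (median 865) and stood at 683, 688, 663, 641 and 705 TPM, so M4 and M7 were nearly level. Gpi1, glucose-6-phosphate isomerase, ran from 336 to 406 TPM in set 1 and from 301 to 331 TPM in set 2. Egln3 ran from 9.51 to 15.5 TPM (median 13.3) and stood at 5.61, 6.32, 8.66, 4.91 and 9.45 TPM, and M4 and M7 were again nearly level. Egln3 and Slc16a3 had the largest falls among the 35 genes: mean TPM fell by 46.4% and 42.2% from set 1 to set 2.

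**Figure D5:**
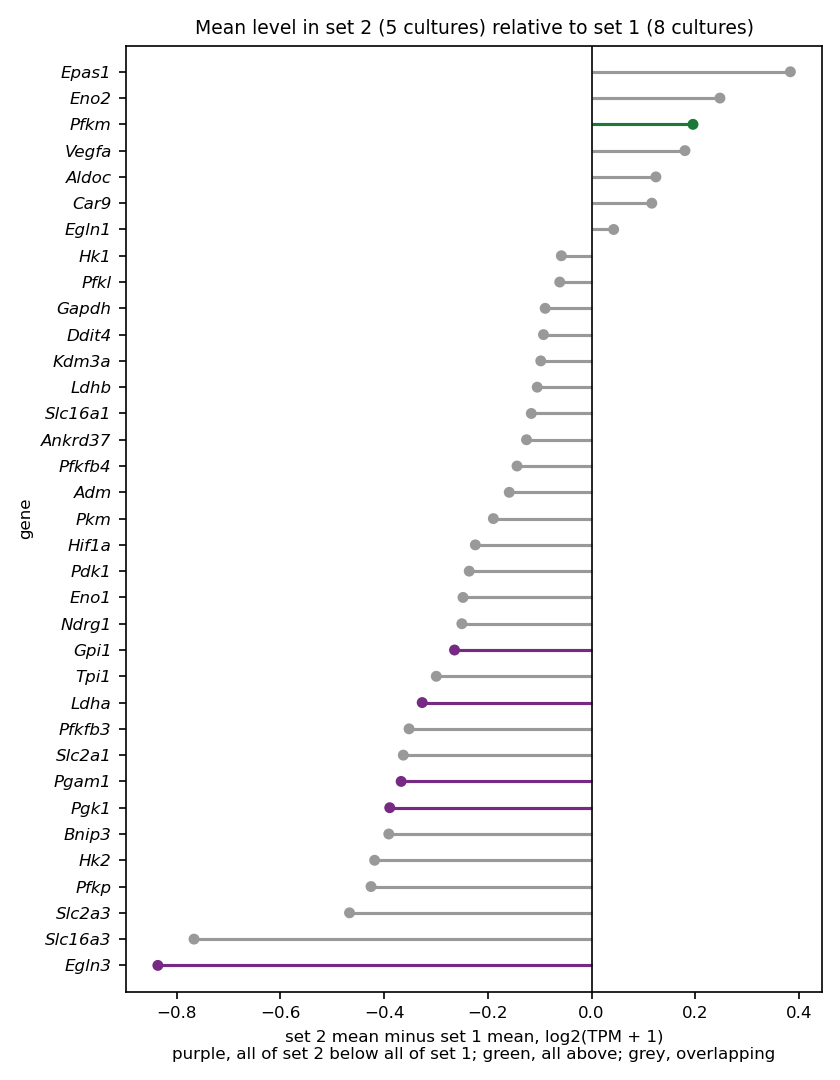
Mean log2(TPM + 1) of set 2 (5 cultures) minus that of set 1 (8 cultures) for each of the 35 genes, sorted; colour marks genes whose sets do not overlap. Egln3 and Slc16a3 lie farthest to the left, 28 genes are below 0, and Epas1 lies farthest to the right.

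Genes that did not follow included Vegfa, the main vessel growth factor and a classical HIF target, at 126 to 167 TPM in set 1 (median 134) and 150 to 180 TPM in set 2 (median 151). Egln1 was nearly level, at 67.8 ± 4.78 TPM in set 1 (SD, n = 8) and 69.8 ± 3.43 TPM in set 2 (SD, n = 5). Pfkm ran from 27.7 to 33.2 TPM in set 1 and from 33.7 to 40.2 TPM in set 2. Epas1 stood at 4.40 ± 1.98 TPM in set 1 (SD, n = 8) and 5.86 ± 1.60 TPM in set 2 (SD, n = 5), with wide overlap.

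Further genes of these pathways were counted from lists. Over both sets limma called 0 genes in each of 6 lists: 14 tested glycolysis isoforms and side steps, 15 HIF regulators, 44 other hypoxia targets, 13 genes of pyruvate entry into mitochondria, 7 of the pentose phosphate pathway and 4 glucose-sensing genes. At an unadjusted p under 0.05 there were 1, 0, 6, 0, 1 and 0 of them. The median differences were 0.04, −0.003, 0.05, 0.01, −0.04 and 0.07, beside 0.01 over all genes. Of the hypoxia targets, Stc2, a secreted stress glycoprotein, had the smallest p on the higher side (0.42, SE 0.131, limma adjusted p = 0.417). It stood at 10.5, 7.60, 8.59 and 10.8 TPM in W1 to W4 and at 16.7, 16.4, 13.1 and 9.29 TPM in M1 to M4, so only M4 overlapped with WT. In set 2 the values were 5.94 and 5.71 TPM (WT) and 8.89, 5.64 and 7.92 TPM (G234D), where M6 overlapped. Tkt, the transketolase of the pentose phosphate pathway, had −0.12 (SE 0.043, limma adjusted p = 0.45), Slc2a10, a glucose transporter gene, 0.16 (SE 0.059, limma adjusted p = 0.473) and Bpgm, which makes 2,3-bisphosphoglycerate, −0.19 (SE 0.093, limma adjusted p = 0.584).

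Between runs A and B, limma called 3 of the 44 hypoxia targets and 1 of the 15 HIF regulators, all lower in run B, which are shares close to the 7.14% of all genes. Without M1 and M2 it called 0 of the genes of these 6 lists and 13 of all genes, and the 4 differences below were then −0.43 for Loxl2, −0.32 for P4ha1, −0.69 for Pgf and −0.20 for Eloc. Loxl2, a lysyl oxidase that crosslinks collagen, ran from 836 to 925 TPM in run A and from 501 to 685 TPM in run B (−0.59, SE 0.088, limma adjusted p = 0.0143). P4ha1, the collagen prolyl 4-hydroxylase, ran from 230 to 273 TPM and from 187 to 242 TPM, with M3 overlapping (−0.33, SE 0.081, limma adjusted p = 0.045). Pgf, placental growth factor, ran from 6.37 to 8.85 TPM and from 1.84 to 4.47 TPM (−1.04, SE 0.204, limma adjusted p = 0.0282). Eloc, which encodes elongin C of the ligase that destroys HIF alpha, ran from 107 to 120 TPM and from 89.9 to 96.4 TPM (−0.28, SE 0.046, limma adjusted p = 0.0175). In the other 4 lists 0 genes were called, with 5, 5, 1 and 0 at an unadjusted p under 0.05.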

How the data were processed

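RNA of 13 primary mouse dermal fibroblast cultures was analysed. Values were TPM, computed by the authors per the file headers, on build mm10 per the submitters' processing notes (aligner, counter, annotation: not given in the sources used here). Values were tested as log2(TPM + 1) with limma 3.58.1 in R 4.3.3 (trend and robust empirical Bayes) over all genes at 1 TPM or more in as many cultures as the smaller group holds, with Benjamini-Hochberg adjustment and calls at an adjusted p under 0.05. The main fits hold the run of animal numbers as a block. Per the series' design text, replicates came from different mice. Named genes were those called in a test, the 2 genes with the smallest unadjusted p in each direction in each genotype test, and in each further list those called or of smallest p per direction. The 35 genes and all lists were chosen with earlier results of these data known. Aldoa matched 2 entries, and both were counted in the list of glycolysis isoforms and side steps. Ero1l was matched as Ero1a. Same-numbered WT and G234D cultures correlated in their deviations by 0.314, 0.236, 0.244 and 0.214 in set 1, and by −0.0105 and −0.0883 once run means were removed; in set 2 the values were −0.155 and 0.0138. Alternatives were a pseudocount of 0.1, no filter, a filter of 10 TPM, median-of-ratios scaling, no block, a replicate block, a fit on all libraries, leaving out each culture and, chosen after seeing the data, leaving out M1 and M2. The scripts were tested on simulated data. Coordinates and sequences come from RefSeq GRCm38.p6.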

Additional observations from a re-analysis of the deposited data

Results flagged for a closer look

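Ldhb, the heart-type lactate dehydrogenase subunit, stood at 30.0 TPM in W3, far from the 43.1, 41.5 and 41.1 TPM of W1, W2 and W4. It was the only such outlying culture among the 70 groups of 4 examined (35 genes in 2 groups). Chance alone flags about 1 in 20 of such groups, so 1 flag among 70 is not more than that share. M4, of the other genotype and the same run, was also low at 31.5 TPM.

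The genotype difference of Aldoc changed by 1.12 on the log2 scale between runs A and B (limma interaction, adjusted p = 0.0134), from −0.92 in run A to 0.21 in run B. The low values were those of M1 and M2.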

How the results depend on the processing

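The count of the 35 genes called for genotype stayed at 0 over both sets, in set 1, in set 2 and for the set interaction under every alternative run. With the replicate block it was 0 in all 3 genotype tests, and the block changed the count of all genes called in set 2 from 1 to 21. Between runs A and B the count of the 35 was 4, and became 6 with a filter of 10 TPM (of 29 tested), 3 with a pseudocount of 0.1, 4 with median-of-ratios scaling, 1 with no filter and 0 without M1 and M2, and ran from 0 to 7 when single cultures were left out. For the change of the genotype difference between runs it was 1, and became 0 with a filter of 10 TPM, which Aldoc does not pass, and ran from 0 to 4 when single cultures were left out. Aldoc over both sets turned to 0.051 without M1 and M2. Differences near 0 changed sign when a culture was left out: Pgam1 over both sets ran from −0.048 (without W2) to 0.019 (without M4), and Ddit4 from −0.0047 (without M3) to 0.090 (without W1). Of 403 alternative values of 25 single-gene results, 371 kept direction and side of the threshold, 28 lost the call and 4 turned. All 28 losses fell on the called results: Ndrg1, Epas1, Hk2 and Pgam1 between runs A and B, and Aldoc for the change. The other results were uncalled and had no call to lose, so the total does not measure how stable the calls were. Counts over all genes moved as follows: run B against run A 850, with 269 without the filter, 13 without M1 and M2 and 36 to 883 leaving out single cultures; change between runs 334, with 139 without the filter and 46 to 674; set 1 genotype 1, with 31 when fitted on all libraries, 0 with no block or no filter, 8 without M1 and M2 and 0 to 8; set 2 genotype 1, with 0 with no filter or the 10 TPM filter and 0 to 14; set interaction 1, with 0 with no filter, 33 without M1 and M2 and 0 to 4. The cause of these changes was not tested. The change between runs could not be fitted without M1 and M2, which are its only G234D cultures of run A. TPM carry no depth, so counting error at low genes such as Car9 and Slc2a3 is unknown.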

Other observations

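Further hypoxia and pathway genes changed their genotype difference between runs A and B. Tfrc, the transferrin receptor, stood at 31.4 and 29.2 TPM in WT against 39.7 and 34.0 TPM in G234D in run A and at 27.3 and 31.0 TPM in WT against 20.7 and 20.6 TPM in G234D in run B (−0.74, SE 0.128, limma adjusted p = 0.0214). Hmox1 (−0.49, limma adjusted p = 0.039), Cited2, whose product limits HIF (−0.45, 0.0398), Pgd of the pentose phosphate pathway (−0.44, 0.0326) and Zfp395 (0.97, 0.0162) were also among the genes of these lists called for this change, against 2.81% of all genes.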
